A study of Mus musculus with 2 samples.

Results

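The cells described here were the 864 splenic CD11c+ MHCII+ cells that fell in transcript cluster 2 (C2) and carried the deposited SingleR label monocyte, out of 24343 cells in all. SingleR assigns each cell the sorted population of a reference, here the Immunological Genome Project (ImmGen) collection, whose expression profile it resembles most. C2 held 2462 cells and was annotated in the study as immature cDC2b, a subset of Sirpa+ conventional dendritic cells (cDCs). The other C2 cells were labelled DC (1592 cells) or something else (6 cells). The monocyte-labelled C2 cells were set beside the DC-labelled cells of C2 and beside the 175 monocyte-labelled cells of C15, the cluster annotated as monocytes.

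The study profiled 2 groups by CITE-seq, which captures transcripts and tagged surface antibodies from the same single cells. WT cells came from female C57BL/6 mice and Batf3-/- cells from female mice that lack Batf3, a transcription factor needed for the cDC1 lineage, in every cell. Mice were 8 weeks old, and the spleens of 6 mice per genotype were pooled, depleted of T and B cells and sorted into 1 library. The monocyte-labelled C2 cells numbered 384 in WT and 480 in Batf3-/-. Each genotype being 1 library, genotypes could not be compared by a test, and the cluster and the label were both assigned from the same transcripts, so that RNA differences between the cell groups are given as descriptions without a test.

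Conventional DCs arise from Flt3-dependent precursors, hold large amounts of MHC class II and present antigen to T cells. Monocytes are phagocytes of the blood and spleen that carry Csf1r, lysozyme and Fc receptors, and in the mouse they divide into classical Ly6C-high and non-classical Ly6C-low cells. The cDC2b subset shares several surface molecules with monocytes, among them the chemokine receptor Ccr2, the growth factor receptor Csf1r and a set of C-type lectins, which bind sugars on microbes and on other cells. These shared genes make the border between cDC2b cells and monocytes hard to place from transcripts.

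Monocyte labels were concentrated in C2. Of the 1224 cells with this label in the whole series, 70.6% were in C2, 14.3% in C15 and 7.84% in C11, the other cDC2b cluster. The label covered 88.8% of the cells of C15 but 35.1% of the cells of C2. Within C2 its share was 40.8% in WT (exact 95% interval 37.6 to 44.0%, 384 of 942 cells) and 31.6% in Batf3-/- (29.2 to 34.0%, 480 of 1520 cells). As a share of all sorted cells of a library the order was the other way round, 3.14% in WT and 3.96% in Batf3-/-. The sorted cells differed in make-up, since the cDC1 cluster C4 held 2202 cells in WT and 31 in Batf3-/-. A higher share of all cells in Batf3-/- therefore does not show that these cells were more numerous there, and this was not tested. All intervals given here cover counting error only, not the variation between mice.

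The label moved with sequencing depth at the upper end. From the lowest to the highest quartile of C2 cells by unique molecular identifiers (UMIs, which count captured transcripts), the share labelled monocyte was 44.1%, 45.5%, 43.4% and 30.1% in WT and 33.9%, 34.6%, 33.3% and 24.5% in Batf3-/-. Monocyte-labelled C2 cells held a median of 8168 UMIs in WT and 9209.5 in Batf3-/-, against 8549.5 and 9500.5 in DC-labelled C2 cells and 6009 and 7622.5 in C15 monocytes. More of them were in the deposited G1 phase, 93.0% and 94.8% against 88.8% and 89.8% of DC-labelled C2 cells. The median share of mitochondrial UMIs was 2.89% and 2.92% against 3.28% and 3.37%, and the ribosomal share was 26.6% and 27.7% in both groups of C2 but 19.4% and 18.6% in C15. The part of depth in the label was not tested. Of the 51 higher and 52 lower genes described below, 49 and 48 remained after weighting the DC-labelled cells to the depth of the monocyte-labelled cells. After thinning each cell to 2000 UMIs, 40 and 40 of them remained.

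The 3 marker genes Cd209a, Ccr2 and Clec12a were all high in the monocyte-labelled C2 cells. Levels are CPM, the UMIs of a gene summed over the cells of a group and library and scaled to 1000000 UMIs of those cells, which totalled 3194936 in WT and 4561012 in Batf3-/- for the monocyte-labelled C2 cells. Cd209a, a DC-SIGN family lectin, reached 992 CPM in WT and 859 CPM in Batf3-/-, against 469 and 382 CPM in DC-labelled C2 cells and 30.0 and 61.1 CPM in C15 monocytes. Ccr2, the receptor for the monocyte chemoattractant Ccl2, reached 353 and 281 CPM, against 87.0 and 80.4 CPM in DC-labelled C2 cells. Clec12a, an inhibitory lectin receptor, reached 244 and 154 CPM, against 138 and 69.8 CPM. All 3 were thus higher in the monocyte-labelled cells than in the DC-labelled cells of the same cluster in both libraries, by 2.23-fold, 3.77-fold and 2.08-fold over the libraries together. Only Cd209a also separated them from C15 monocytes, by 23.7-fold, since C15 held 274 and 427 CPM of Ccr2 and 164 and 194 CPM of Clec12a, and for these 2 genes the direction of the difference from C15 was opposite in the 2 libraries. Cd209a lies on chromosome 8 from 3743397 to 3748984, Ccr2 on chromosome 9 from 124101950 to 124113557 and Clec12a on chromosome 6 from 129342691 to 129365303 of GRCm38, the build of the GENCODE annotation.

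**Figure D1:**
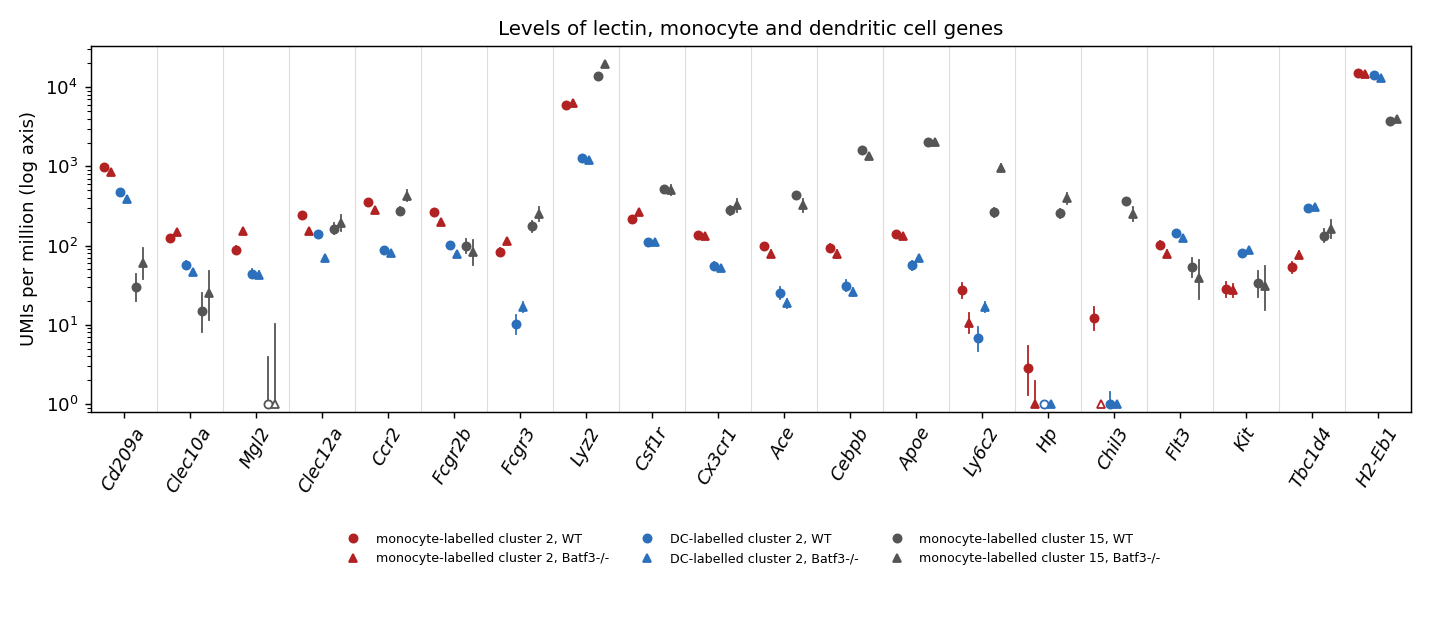
Levels in CPM on a log axis of marker genes in monocyte-labelled C2 cells, DC-labelled C2 cells and C15 monocytes, with 1 point per library and exact Poisson 95% intervals as bars. Values under 1 CPM are drawn at 1 and open symbols mark genes with 0 UMIs; Cd209a is highest in the monocyte-labelled C2 cells (992 and 859 CPM) and Lyz2 lies between the other groups (6023 and 6391 CPM).

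Beyond the markers, 51 of the 2418 genes that averaged 50 CPM or more were more than 1.5-fold higher in the monocyte-labelled than in the DC-labelled C2 cells in both libraries (2.11%), and 52 were lower (2.15%). Over all 2418 genes the median log2 ratio was -0.03. The groups of C2 were thus alike in most genes, and the Pearson correlation across 2570 genes on the log2(CPM + 1) scale was 0.969 in WT and 0.973 in Batf3-/-, against 0.887 and 0.872 between monocyte-labelled C2 cells and C15 monocytes. Genes are not independent replicates, and these correlations describe the groups only.

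C-type lectins were among the higher genes. Cd209a, Clec10a, Clec12a, Clec4a3, Clec4b1 and Mgl2 were called higher than in DC-labelled C2 cells. Mgl2 passed the level filter only through the monocyte-labelled cells, and Cd209a and Clec12a are among the marker genes above, so that no count of lectins is given. Clec10a and Mgl2, which encode the 2 mouse macrophage galactose-type lectins, were at 123 and 149 CPM and at 88.9 and 151 CPM, against 57.2 and 46.3 CPM and 44.2 and 43.0 CPM in DC-labelled cells. Clec4a3 and Clec4b1, receptors of the dendritic cell immunoreceptor and DCAR families, reached 300 and 260 CPM and 160 and 75.4 CPM. Against C15 monocytes, the lectins divided. Mgl2 had 0 UMIs in C15 in both libraries and was at least 54.1-fold higher in the monocyte-labelled C2 cells (against a floor of 3 counts over the C15 cells of both libraries), Clec10a was 7.79-fold higher, and Clec4b1 was 2.40 higher on the log2 scale. Clec4a3 was lower than in C15, at a log2 ratio of -0.80.

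Some lysozyme and Fc receptor genes were also higher, and of these Lyz2 and Fcgr3 lay between both reference groups. Lyz2, the myeloid lysozyme, was at 6023 CPM in WT and 6391 CPM in Batf3-/-, against 1271 and 1203 CPM in DC-labelled C2 cells and 13849 and 19733 CPM in C15 monocytes. Fcgr3, an activating receptor for IgG, showed the largest log2 ratio of the 51 higher genes, 2.80 (95% interval 2.58 to 3.02), with 82.6 and 115 CPM against 10.3 and 16.6 CPM. Fcgr2b, the inhibitory IgG receptor, was at 269 and 198 CPM and stood above both DC-labelled C2 cells (101 and 79.3 CPM) and C15 monocytes (99.6 and 83.3 CPM). Fcgr3 passed the level filter only through the monocyte-labelled cells, so that no count of Fc receptor and adaptor genes is given. Of 15 measured lysosomal genes 3 were higher, namely Lyz2, the protease gene Ctsc and the membrane protein gene Lamp1, against 2.11% of all genes.

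The sequences just upstream of the genes for a lectin with 0 UMIs in C15, the lectin that marks the cells and the lysozyme are shown because these genes carry the contrast with C15 (Mgl2 and Cd209a) and with DC-labelled C2 cells (Lyz2). Each is the 200 bases before the annotated start in the RefSeq promoter table (GRCm38.p6), written 5′ to 3′ on the strand of the gene, with capitals marking any match on either strand to GAGGAA, the core bound by the myeloid factor PU.1, or to TTGCNNAA, a C/EBP core. The windows are chr8:3748985-3749184 on the minus strand for Cd209a, chr11:70130129-70130328 on the plus strand for Mgl2 and chr10:117282322-117282521 on the minus strand for Lyz2.
Cd209a: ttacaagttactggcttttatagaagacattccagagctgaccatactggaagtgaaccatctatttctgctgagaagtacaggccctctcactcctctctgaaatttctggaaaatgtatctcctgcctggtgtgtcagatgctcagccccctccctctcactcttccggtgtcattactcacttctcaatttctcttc
Mgl2: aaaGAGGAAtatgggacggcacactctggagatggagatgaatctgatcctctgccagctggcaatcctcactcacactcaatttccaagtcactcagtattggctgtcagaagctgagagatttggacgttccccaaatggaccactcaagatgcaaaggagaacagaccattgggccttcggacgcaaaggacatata
Lyz2: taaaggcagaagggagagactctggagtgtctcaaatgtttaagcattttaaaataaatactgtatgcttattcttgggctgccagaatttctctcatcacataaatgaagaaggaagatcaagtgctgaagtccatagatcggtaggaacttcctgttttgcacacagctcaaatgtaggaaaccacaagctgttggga
GAGGAA had 1 match among these windows, 197 bases before the end of the Mgl2 window, and TTGCNNAA in none of them. Over all 27025 genes of the table, 21.3% of windows held GAGGAA and 8.55% held TTGCNNAA. Of the 2418 genes that passed the level filter within C2, 1945 had a window, and 21.7% and 7.87% of these held them. Of the 51 genes higher in monocyte-labelled than in DC-labelled C2 cells, 44 had a window, and 15 (34.1%) held GAGGAA and 6 (13.6%) TTGCNNAA, while of the 52 lower genes 40 had a window, and 12 (30.0%) and 4 (10.0%) held them. The shares were not tested against each other, and a match is a run of letters and not evidence of binding.

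Some genes of the monocyte lists were higher than in DC-labelled C2 cells. Among the non-classical markers, Ace, a peptidase, was at 97.7 and 79.2 CPM against 25.5 and 18.7 CPM. The transcription factor Cebpb was at 94.2 and 78.1 CPM against 31.0 and 26.2 CPM. The fractalkine receptor Cx3cr1, at 134 and 131 CPM against 55.8 and 51.5 CPM, and the adhesion receptor Adgre4 were higher too. Ace and Cebpb passed the level filter only through the monocyte-labelled cells, so that no count of this list is given. Among the classical markers, Ccr2 and Lyz2 were called higher. Only 3 of the 15 listed passed the level filter, and Ccr2 is among the marker genes above, so that no count of this list is given either. Csf1r, the receptor for the monocyte growth factor, was at 219 and 263 CPM against 109 and 111 CPM. The chemokine Ccl9 (393 and 314 CPM against 141 and 76.8 CPM) and Hpgd, which breaks down prostaglandins (254 and 330 CPM against 89.6 and 122 CPM), completed the 12 genes with the largest ratios.

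The lower genes included regulators and maturation genes of DCs. Kit, the stem cell factor receptor, was at 28.2 and 27.2 CPM against 79.5 and 88.5 CPM in DC-labelled C2 cells. Adam23 (20.3 and 24.3 CPM against 119 and 142 CPM) and Tbc1d4, a Rab GTPase-activating protein (52.9 and 76.5 CPM against 301 and 303 CPM), had the lowest log2 ratios, -2.57 (-2.80 to -2.35) and -2.18 (-2.31 to -2.05). The transcription factors Id2 and Relb, which act in DC development, were at 74.2 and 82.0 CPM against 161 and 272 CPM and at 92.0 and 125 CPM against 255 and 272 CPM. Of the 6 measured maturation genes 5 were lower (Ccl5, Cd40, Cd83, Il4i1 and Relb) and none higher, against 2.15% and 2.11% of all genes. The cyclin genes Ccnd1 and Ccnd2 were lower too, at 223 and 283 CPM against 618 and 635 CPM and at 33.5 and 47.1 CPM against 79.5 and 98.2 CPM. Among the core DC genes Kit and Traf1 were called lower. Kit passed the level filter only through the DC-labelled cells, so that no count of this list is given. Flt3, the receptor on which cDCs depend, was at 103 and 79.1 CPM against 146 and 124 CPM, which did not pass 1.5-fold in both libraries, and Zbtb46, a cDC transcription factor, was at 26.0 and 34.0 CPM against 51.7 and 54.5 CPM, below the level filter.

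Most genes of MHC class II presentation passed 1.5-fold in neither direction within C2. H2-Aa and H2-Eb1, an alpha and a beta chain of the MHC class II molecules, were at 13056 and 13306 CPM and at 15199 and 14856 CPM in the monocyte-labelled C2 cells, and at 12424 and 11622 CPM and 14360 and 13205 CPM in the DC-labelled cells. In C15 they were at 3484 and 3666 CPM and at 3764 and 3919 CPM. None of the 13 measured genes of the list was higher than in DC-labelled cells, against 2.11% of all genes, and H2-DMb2, H2-Eb2 and H2-Ob were called lower. Not every gene of the list averaged 50 CPM in the monocyte-labelled cells, and such a gene passed the level filter only through the DC-labelled cells. No count of the lower genes is therefore given. Sirpa, the gene of CD172a, was at 258 and 260 CPM against 287 and 245 CPM, and Itgax, the gene of CD11c, at 279 and 227 CPM against 298 and 204 CPM.

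The contrast with C15 monocytes was wider. Of 2620 genes, 73 were higher in the monocyte-labelled C2 cells in both libraries (2.79%) and 368 lower (14.0%), and the median log2 ratio over all genes was -0.20. With ribosomal and mitochondrial genes left out of the totals, the counts were 143 higher and 366 lower, so that 28.1% of the called genes were higher in place of 16.6%, and the median over all genes moved up by 0.11 on the log2 scale. The ribosomal share of UMIs, given above, differed between C2 and C15.

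Several defining genes of monocytes were low or near 0 in the monocyte-labelled C2 cells. Many of the listed markers passed the level filter only through C15, where they are high, so that no count of them is given. Hp, encoding haptoglobin, was at 2.82 and 0.66 CPM against 256 and 394 CPM, Chil3, a chitinase-like protein, at 12.2 and 0 CPM against 362 and 253 CPM, and Fabp4, a fatty acid binding protein, at 4.07 and 0.66 CPM against 473 and 280 CPM. Ly6c2, the Ly6C gene of classical monocytes, was at 27.2 and 10.5 CPM against 264 and 958 CPM. All 4 were far below C15 in both libraries. Cebpb and Apoe, both above the DC-labelled cells of C2, were still far from C15, at 94.2 and 78.1 CPM against 1610 and 1363 CPM and at 138 and 131 CPM against 2022 and 2051 CPM. Among the homing and adhesion genes, Cd44, Cx3cr1, Cxcr4, Itga4, Itgal, Itgam, Itgb1 and Itgb2 were called lower. The integrin gene Itgal was at 63.2 and 68.4 CPM against 729 and 625 CPM. None of the 13 measured genes of this list was higher, against 2.79% of all genes. Not every one averaged 50 CPM in the monocyte-labelled C2 cells, so that no count of the lower genes is given.

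Antigen presentation genes and lectins were among the genes higher than in C15. Of 12 measured MHC class II presentation genes 8 were higher and only Cst3, a cystatin, was lower, against 2.79% higher and 14.0% lower among all genes. Among the core DC genes Bcl11a, Ciita, Flt3 and Kmo were called higher. Flt3 passed the level filter only through the monocyte-labelled C2 cells, so that no count of this list is given. Ciita encodes the activator of MHC class II transcription. The largest ratios after Mgl2 and Cd209a were those of Mmp12, a macrophage elastase, at 104 and 156 CPM against 8.57 and 13.9 CPM, and of Clec10a. Clec4b1, Klrd1, Tmem176a, H2-DMb1, Klrk1, H2-Eb1, Sirpb1a and Tmem176b followed. Klrd1 and Klrk1, known as receptors of natural killer cells, were at 307 and 314 CPM and at 147 and 119 CPM in these cells and at 367 and 345 CPM and 91.2 and 110 CPM in DC-labelled C2 cells, while the 7 T and NK cell markers together reached 1.56 and 2.19 CPM.

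On the full monocyte lists, to which no level filter was applied, 7.61% and 6.67% of the cells reached the median of C15, as given below, and these cells are called monocyte-labelled C2 cells here and not monocytes. Markers of other cell types did not all go one way. The 14 macrophage markers, none of them at 0, summed to 480 and 477 CPM, above the 219 and 223 CPM of DC-labelled C2 cells and below the 2511 and 2512 CPM of C15, and of the 2 that passed the level filter Apoe was higher, against 2.11% of all genes. The 10 cDC1 markers, also none at 0, summed to 539 and 397 CPM against 454 and 382 CPM in DC-labelled C2 cells and 6860 and 3789 CPM in the cDC1 cluster C4, and of the 4 that passed the level filter Irf8 and Naaa were higher and Wdfy4 lower, against 2.11% and 2.15% of all genes. Neutrophil markers summed to 26.9 and 19.5 CPM against 17.0 and 11.0 CPM in DC-labelled C2 cells, with Camp, Ly6g, Ngp and Retnlg at 0 in both libraries. The pDC markers summed to 293 and 239 CPM against 291 and 272 CPM, and 13844 and 14043 CPM in the pDC cluster C14. The part of other cell types in the differences within C2 was not tested. None of the 864 cells was called a doublet by Scrublet, which called 438 cells in the WT library but only 1 in the Batf3-/- library and so did not work there. A barcode shared with the other library was found in 5 of the 864 cells.

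To place the cells between both reference groups, 252 genes were taken that differed at least 2-fold between C15 monocytes and DC-labelled C2 cells in both libraries. The log2 difference of the monocyte-labelled C2 cells from the DC-labelled cells was divided by that of C15, so that 0 is the level of DC-labelled C2 cells and 1 that of C15 monocytes. The median position was 0.212 (quartiles 0.078 and 0.392). It was 0.207 for the 209 genes higher in C15 and 0.262 for the 43 genes lower in C15. Of the 252 genes, 42 lay below 0, 93 from 0 to 0.25, 110 from 0.25 to 0.75, 6 from 0.75 to 1, and 1, Kit at 1.17, above 1. Some of these genes reached the level filter only through C15 and held few UMIs in C2, so that the positions describe single genes and the cells are not placed by their median. All positions named here are for both libraries together, and by library 3 genes lay above 1 in WT and 2 in Batf3-/-. Ccr2 stood at 0.99, but its level was above that of C15 in WT and below it in Batf3-/-. Hpgd stood at 0.83 and Fcgr3 at 0.75. Lyz2 was at 0.64, Cx3cr1 at 0.54, Csf1r at 0.52 and Ace at 0.48. Cebpb was at 0.28, Apoe at 0.21 and Fabp4 at 0.14, and Cd209a was on the far side of the DC-labelled cells at -0.34.

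**Figure D2:**
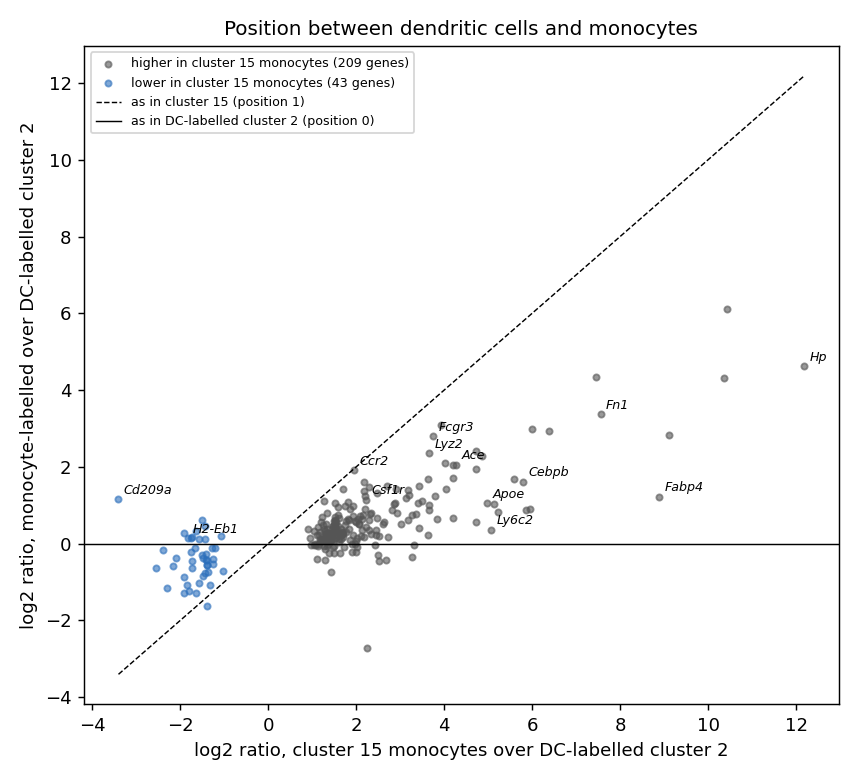
Log2 ratio of monocyte-labelled over DC-labelled C2 cells (vertical axis) against the log2 ratio of C15 monocytes over DC-labelled C2 cells (horizontal axis), both libraries together, with 1 point for each of the 252 genes and colours for the 209 genes higher and the 43 genes lower in C15. Points on the solid line have the level of DC-labelled C2 cells and points on the dashed line that of C15 monocytes. The median position is 0.212, with Ccr2 near the dashed line at 0.99 and Cd209a on the far side of the solid line at -0.34. Ccr2 is near the line only with the libraries together, being above C15 in WT and below it in Batf3-/-.

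Single cells were compared after thinning each to 2000 UMIs, which left out 3 shallower monocyte-labelled C2 cells. Cd209a was found in 58.3% of the WT cells and 57.9% of the Batf3-/- cells, against 38.8% and 37.7% of DC-labelled C2 cells, 3.91% and 6.52% of C15 monocytes and 16.6% and 12.3% of the cells of the cDC2a cluster C0, which served as the background. Ccr2 was found in 37.8% and 34.0%, against 12.3% and 11.8%, and in C0 in 0.379% and 0.375%. Lyz2 was found in 76.1% and 78.1% of the cells, against 42.5% and 38.2% of DC-labelled C2 cells, 98.4% and 100% of C15 monocytes and 3.69% and 3.10% of C0 cells. Within the monocyte-labelled C2 cells, Ccr2 was found more often in cells with a Lyz2 UMI (43.8% in WT, interval 38.0 to 49.7%; 38.7% in Batf3-/-, 33.7 to 43.8%) than in cells without one (18.7%, 11.3 to 28.2%; 17.1%, 10.5 to 25.7%). Lyz2 was found at similar shares in cells with and without Cd209a, 73.9% and 79.2% in WT and 77.3% and 79.2% in Batf3-/-, with overlapping intervals.

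The summed monocyte genes and the MHC class II genes put the cells in different places. Per 2000 UMIs, the median number of UMIs on the monocyte lists was 11 in both libraries for monocyte-labelled C2 cells, 5 for DC-labelled C2 cells and 48.5 and 51.5 for C15 monocytes. Without Lyz2 the medians were 6 and 5, 4 and 4, and 28 and 26, so that Lyz2 carried much of the difference within C2. On the monocyte lists 7.61% and 6.67% of the monocyte-labelled C2 cells reached the C15 median, and without Lyz2 0.262% and 0.417% did (1 and 2 cells). For MHC class II presentation the medians were 159 and 153 UMIs, against 147 and 138 in DC-labelled C2 cells and 28.5 and 20.5 in C15. Of the monocyte-labelled C2 cells, 85.3% and 82.9% lay above the median of DC-labelled C2 cells on the monocyte lists, against 48.3% and 45.7% of the DC-labelled cells themselves. Without Lyz2 66.7% and 56.5% did, against 41.7% and 42.3% of the DC-labelled cells and 50.5% and 41.7% of the cells of C0. On MHC class II presentation 64.0% and 66.5% of the monocyte-labelled C2 cells did, against 3.12% and 0% of the C15 monocytes. Core DC genes were at a median of 3 UMIs in both libraries, against 5 and 4 in DC-labelled C2 cells and 1 and 2 in C15.

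**Figure D3:**
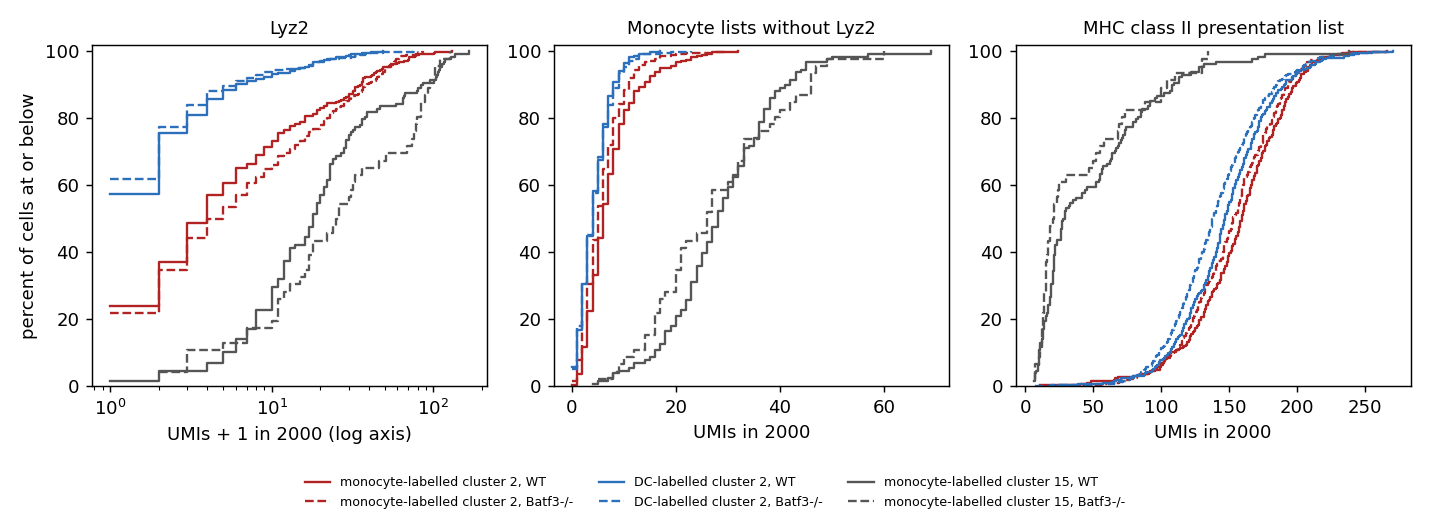
Percent of cells (vertical axis) at or below a number of UMIs in 2000 (horizontal axis, logarithmic and with 1 added for Lyz2) for Lyz2, the monocyte lists without Lyz2 and the MHC class II presentation list, with solid lines for WT and dashed lines for Batf3-/-. The curves of the monocyte-labelled C2 cells lie between the other groups for Lyz2 and close to the DC-labelled C2 cells for the other lists, with medians of 159 and 153 against 147 and 138 UMIs for MHC class II.

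The deposited finer SingleR labels divided the monocyte-labelled C2 cells further. The reference population MO.6C-II+, named for absent Ly6C and present MHC class II, was the finer label of 272 WT cells (70.8%) and 317 Batf3-/- cells (66.0%). MO.6C+II-, named for the opposite pattern, was that of 55 (14.3%) and 73 (15.2%) cells. A finer label of the DC family was carried by 35 (9.11%) and 62 (12.9%) cells, so that the coarse and the finer label disagreed for these, and 18 and 23 cells had a macrophage label. In C15 the most frequent finer label was MO.6C-IIINT, with 89 of 129 and 26 of 46 cells.

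The cells with the finer labels MO.6C+II- and MO.6C-II+ were also compared, and this contrast was chosen after the values had been seen. The MO.6C+II- cells held 505469 UMIs in WT and 748168 in Batf3-/- in all, so that each ratio has a wider counting error than in the contrast within C2 as a whole. Of 2341 genes, 104 were higher in the MO.6C+II- cells in both libraries (4.44%) and 112 lower (4.78%). Lyz2 was at 17150 CPM in WT and 17485 CPM in Batf3-/- in the MO.6C+II- cells, against 3567 and 3937 CPM in the MO.6C-II+ cells. Lyz1, the second lysozyme gene, was at 279 and 251 CPM against 6.82 and 9.93 CPM, and Cd63, a tetraspanin of lysosomes, at 119 and 127 CPM against 4.54 and 9.25 CPM. Lyz1 and Cd63 passed the level filter only through the MO.6C+II- cells, so that no count of lysosomal genes is given. Cd209a went the other way, at 96.9 and 132 CPM against 1296 and 1101 CPM, a log2 ratio of -3.33 (-3.57 to -3.09). Flt3 (25.7 and 26.7 CPM against 125 and 93.2 CPM) and Cd7 (7.91 and 4.01 CPM against 115 and 123 CPM) were also lower. The highest Lyz2 and the highest Cd209a levels were thus found in cells of different finer labels. The MO.6C+II- cells also held more Apoe (392 and 340 CPM against 64.1 and 90.4 CPM), and Cd40, Cd86, Il4i1 and Relb of the maturation list were higher.

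The RNA levels went against the MHC class II part of the name MO.6C+II-, and for Ly6C the libraries differed. All cells had been sorted as MHCII+, and both groups of C2 held much MHC class II RNA, so that high levels in a subset of C2 were largely given beforehand. In the MO.6C+II- cells of C2, H2-Aa was at 13190 and 14376 CPM and H2-Eb1 at 16294 and 16754 CPM, while C15 cells with the same finer label (24 and 15 cells) held 2243 and 191 CPM and 2356 and 136 CPM. Ly6c2 was at 83.1 and 6.68 CPM in these C2 cells, against 15.5 and 13.02 CPM in the MO.6C-II+ cells and 1047 and 2727 CPM in the C15 cells, so that it was higher than in the MO.6C-II+ cells in WT only. Hp was at 5.94 and 2.67 CPM against 719 and 885 CPM. Of the 2535 genes measured between these groups, 6.90% were higher and 19.4% lower in the C2 cells. The C2 cells with this label thus held much Lyz2, with less Ly6c2 and Hp and more of both MHC class II genes than the C15 cells of that label.

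**Figure D4:**
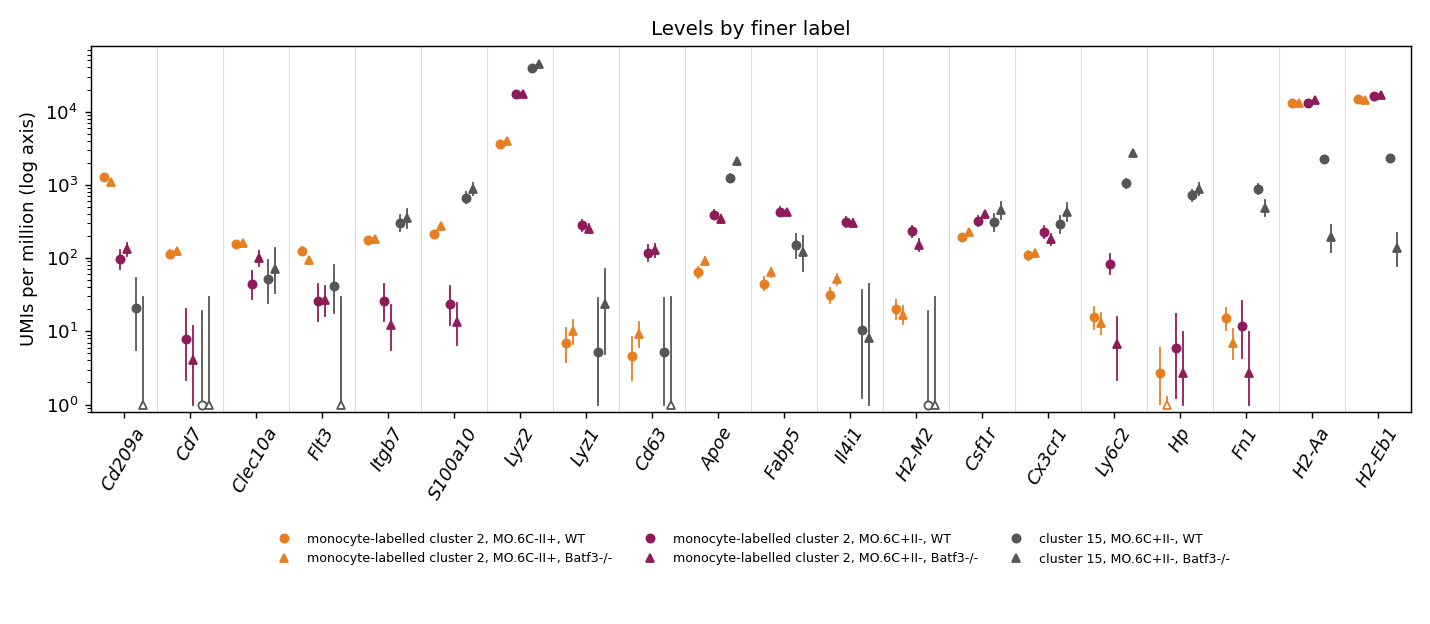
Levels in CPM on a log axis of genes in monocyte-labelled C2 cells with the finer label MO.6C-II+ or MO.6C+II- and in C15 cells labelled MO.6C+II-, with 1 point per library and exact Poisson 95% intervals; values under 1 CPM are drawn at 1 and open symbols mark 0 UMIs. Cd209a falls from 1296 and 1101 CPM to 96.9 and 132 CPM between the C2 subsets, while H2-Aa is at 13190 and 14376 CPM in the MO.6C+II- cells.

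Cells were also binned by Lyz2 without the finer label, and these bins were chosen after the values had been seen. In a second thinning, drawn apart from the one above, 24.4% of the monocyte-labelled C2 cells in WT and 22.7% in Batf3-/- had 0 Lyz2 UMIs in 2000, 48.3% and 44.6% had 1 to 9, and 27.3% and 32.7% had 10 or more. Cd209a was found in 65.6% and 62.4%, 70.7% and 69.6%, and 28.8% and 36.9% of the cells of these bins. Ccr2 was found in 28.0% and 17.4%, 35.9% and 30.4%, and 49.0% and 52.9%, and Csf1r in 23.7% and 24.8%, 28.3% and 36.0%, and 52.9% and 60.5%. Clec10a was found in 11.8% and 3.67%, 17.4% and 17.3%, and 10.6% and 21.7%, and Mgl2 in 4.30% and 1.83%, 12.0% and 16.4%, and 12.5% and 15.3%. Cells with the most Lyz2 thus held Cd209a least often and Ccr2 and Csf1r most often in both libraries, while Clec10a and Mgl2 were not lowest in them in both. The finer label MO.6C+II- was carried by 36.5% and 38.2% of the highest bin and by at most 6.45% of the others.

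The reverse mismatch was found among the DC-labelled cells of C2, of which 68 in WT (12.3%) and 100 in Batf3-/- (9.62%) carried a finer label of the monocyte family. Their Cd209a was at 1261 and 903 CPM and their Lyz2 at 1108 and 1163 CPM, so that they were near the monocyte-labelled cells in Cd209a and near the other DC-labelled cells in Lyz2.

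Antibody tags were used neither for the clusters nor for the labels and so were a readout apart from the rule. The rows of the tag table carried numbers and no antibody names, and 3 of 11 could be tied to an antibody, by the rule that the row and the gene of the antigen were each the best match of the other in both libraries. The rank correlation across all cells was 0.386 in WT and 0.363 in Batf3-/- for CD4, 0.644 and 0.360 for CD8a and 0.420 and 0.204 for CD172a (12224 and 12119 cells). Median tag counts per cell were 30 and 31 for CD4 in the monocyte-labelled C2 cells against 34 and 34 in DC-labelled C2 cells, 40 and 40 against 41 and 41 for CD8a, and 37 and 42 against 40 and 41 for CD172a. Each of these medians lay between the quartiles of the DC-labelled cells, and 37.7% and 38.5% of DC-labelled C2 cells lay below their CD4 median, 47.6% and 45.4% below their CD8a median and 42.5% and 52.1% below their CD172a median. In C15 monocytes the medians were 29 and 30.5 for CD4, 47 and 44.5 for CD8a and 34 and 37.5 for CD172a. The C15 medians also lay between the quartiles of the DC-labelled cells, so that these tags placed the monocyte-labelled C2 cells with neither group. cDC1 cells of C4, which carry CD8a, had medians of 122 and 106 for that tag.

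Between genotypes, the count of genes past 1.5-fold in the monocyte-labelled C2 cells changed when the cells were thinned to 1 depth. Batf3 itself was at 133 CPM in WT (426 UMIs) and at 0.66 CPM in Batf3-/- (3 UMIs), a log2 ratio of -7.66 (-9.95 to -6.11), as the labels of the libraries have it. Of 2395 genes, 6 were more than 1.5-fold higher in Batf3-/- (0.251%) and 27 lower (1.13%). After thinning each cell to 2000 UMIs, 44 were higher and 66 lower, and 4 and 18 of these were among the 6 and 27. Thinned cells hold fewer UMIs, so that the counting error is wider there. The 12 genes named for this contrast all kept their direction after thinning, and 11 stayed past 1.5-fold. In DC-labelled C2 cells 27 of 2463 genes passed the same limit (1.10%). Cxcl9, a chemokine induced by interferon-gamma, was the highest, at 56.0 CPM in WT and 184 CPM in Batf3-/- (log2 ratio 1.72), against 175 and 224 CPM in DC-labelled C2 cells (0.36). Mgl2 was at 88.9 and 151 CPM (0.76) but at 44.2 and 43.0 CPM in DC-labelled cells (-0.04). By finer label Mgl2 was at 103 and 139 CPM in the 589 cells labelled MO.6C-II+. In those labelled MO.6C+II- it was at 11.9 and 100 CPM, with 6 UMIs in WT. It was at 148 and 96.4 CPM in those with a DC label and at 34.0 and 658 CPM in the 18 and 23 cells with a macrophage label. The tetraspanin gene Cd37, the small heat shock protein gene Hspb1, the isoprenoid enzyme gene Fdps and Mmp12 made up the other 4, with log2 ratios of 0.92, 0.92, 0.69 and 0.59 against 0.57, 0.19, 0.68 and 0.10 in DC-labelled cells. Within the monocyte-labelled cells Cxcl9 was at 98.9 CPM in WT and 483 CPM in Batf3-/- in those with the finer label MO.6C+II-, and at 19.99 and 48.0 CPM in those labelled MO.6C-II+, so that it was higher in Batf3-/- in both. Whether the genotype difference itself depends on the label was not tested, since each cell group had 1 library per genotype.

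The named genes lower in Batf3-/- had log2 ratios below 0 in both groups of C2, which come from the same libraries and are not independent. The study compared the genotypes within clusters and reported only Batf3 as differing in most of them. C2 was not among the exceptions that it named. After Batf3, the lowest were Ly6a, an interferon-inducible surface protein, at 88.9 CPM in WT and 14.3 CPM in Batf3-/- (log2 ratio -2.64, and -1.29 in DC-labelled cells), and Ear2, an eosinophil-associated ribonuclease of non-classical monocytes, at 130 and 42.3 CPM (-1.61, and -2.01). Ccl5 was at 251 and 87.5 CPM (-1.52, and -0.97), the leukotriene receptor gene Ltb4r1 at 96.7 and 41.2 CPM (-1.23, and -1.60) and Clec4b1 at 160 and 75.4 CPM (-1.08, and -1.03). Clec12a, one of the 3 markers, passed the limit as well, at -0.66 against -0.98 in DC-labelled cells, and Cd209a and Ccr2 did not, at -0.21 and -0.33. The mice behind each library cannot be told apart, so the variation between animals is not in these values.

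**Figure D5:**
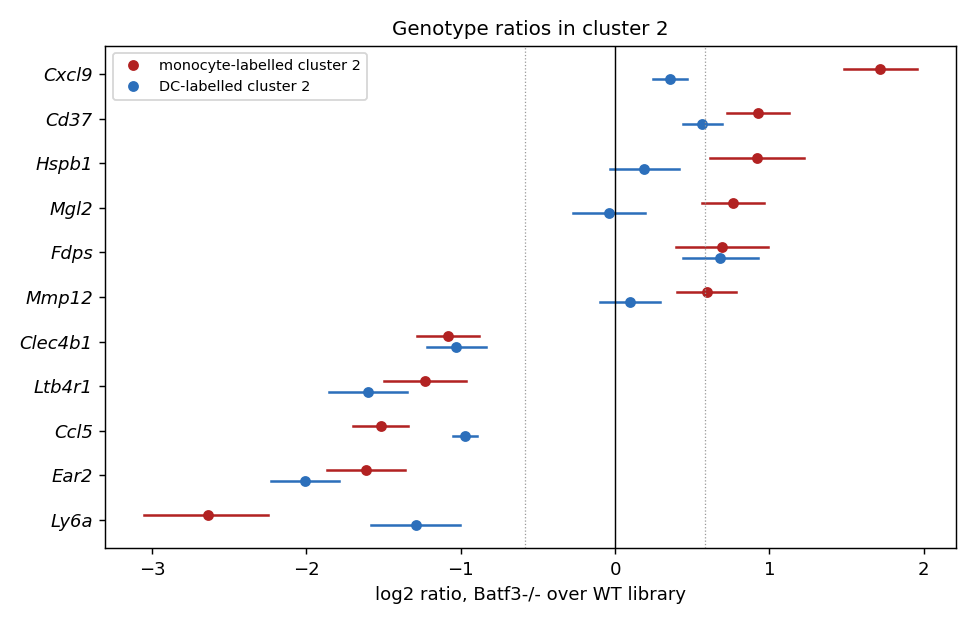
Log2 ratio of Batf3-/- over WT in monocyte-labelled C2 cells and in DC-labelled C2 cells for the 6 highest and, leaving out Batf3, the lowest named genes, with exact 95% intervals as bars and dotted lines at 1.5-fold. Cxcl9 stands at 1.72 and 0.36 and Ly6a at -2.64 and -1.29.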

How the data were processed

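CITE-seq had been run on CD11c+ MHCII+ spleen cells, with 1 library for WT and 1 for Batf3-/-. The deposited UMI counts were made by the authors with Cell Ranger 3.0.2 on GRCm38 (bcl2fastq 2.2.0 for demultiplexing), which collapses reads to UMIs and evens out the sequencing depth of the libraries when it joins them, and were filtered, clustered (resolution 0.5) and labelled by SingleR with the ImmGen reference in Seurat 3.0.5. Filters on genes and cells had been applied before deposit. The deposited cell table gives the mitochondrial and ribosomal fraction of each cell and the cell cycle score behind the phase. Tag counts were also deposited by the authors as natural log values (centered log ratio). UMI and tag totals recomputed from the 17751 genes and 11 tag rows equalled the deposited totals in all 24343 cells. Some genes are not reported here. Every column of values matched a library (0 unmatched).

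From these files, UMIs were summed per cell group and library and scaled to CPM, with exact Poisson intervals for levels, exact binomial intervals for ratios and Clopper-Pearson intervals for shares (95%). A gene was called when its ratio passed 1.5-fold in the same direction in both libraries (between genotypes, in the single pair of libraries) at a mean of at least 50 CPM. A gene with 0 UMIs in a group was given a floor of 3 counts. Named genes were the 12 highest and 12 lowest ratios per label contrast and the 6 highest and 6 lowest between genotypes, with at least 20 UMIs, and genes of 29 lists (markers of cell types, gene families and pathways), of each at most 5 by level or extreme ratio. Genes named beyond these, and those of the finer labels and Lyz2 bins, were chosen after their values were seen. No test across genes was run, and the computation of ratios and calls was tested on simulated data. Shares of cells with a UMI were taken after thinning to 2000 UMIs. The cells and lists were chosen with earlier results of these data known. Python 3.11.15, numpy 2.4.6, scipy 1.17.1, pandas 2.3.3 and scanpy 1.11.5 (Scrublet, expected rate 0.1) were used. Alternatives changed cell weight, total, phase, doublets, depth, level filter, fold, denominator and tag scale.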

Additional observations from a re-analysis of the deposited data

Results flagged for a closer look

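In 4 genes the ratio of monocyte-labelled C2 cells to C15 monocytes passed 1.5-fold in opposite directions in the 2 libraries. The difference between the libraries was not tested, since each had 1 pair of groups, and C15 held 46 cells in Batf3-/-. Rgs1, a regulator of G protein signalling, was at 310 CPM in WT and 232 CPM in Batf3-/- in the C2 cells and at 140 and 422 CPM in C15, with log2 ratios of 1.15 in WT and -0.86 in Batf3-/-. Oasl2 and Ifit3, both interferon-stimulated genes, had log2 ratios of 0.82 and 0.90 in WT and of -1.26 and -0.91 in Batf3-/-. Oasl2 was at 77.3 and 55.5 CPM in the C2 cells and at 43.9 and 133 CPM in C15, and Ifit3 at 87.6 and 44.3 CPM and at 47.1 and 83.3 CPM. Fuca2, a fucosidase gene, had log2 ratios of 0.60 and -0.66, with 90.8 and 52.8 CPM in the C2 cells and 59.96 and 83.3 CPM in C15.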

How the results depend on the processing

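The order of the genotypes in the share of monocyte-labelled cells turned with the denominator. The CD8a tag turned from below to above the DC-labelled cells when given as a share of tags. For the genes lower in C15 the median position was -0.046 at 4-fold, over 2 genes, in place of 0.262. The 24 named genes of each label contrast and the 12 named genes of the genotype contrast kept theirs. Of the values recomputed under the alternatives 75 stayed near the value given above and 36 moved. With a mean of at least 20 CPM in place of 50, 97 genes were higher and 97 lower than in DC-labelled C2 cells, 150 higher and 716 lower than in C15, and 33 higher and 62 lower in Batf3-/-. At 2-fold these counts were 18 and 16, 35 and 181, and 1 and 6. Against C15, 112 genes were higher with each cell weighing the same, 143 without ribosomal and mitochondrial genes and 118 after thinning to 2000 UMIs. Between genotypes, 12 genes were higher without ribosomal and mitochondrial genes, and 44 were higher and 66 lower after thinning, of which 4 and 18 were among the 6 and 27 called above. The share of monocyte-labelled cells in C2 was 32.6% in WT among cells above the median UMI count, near the Batf3-/- share, and as a share of all sorted cells it was 3.14% in WT and 3.96% in Batf3-/-. By share of the tags of a cell, the percent of DC-labelled C2 cells below the median of the monocyte-labelled cells was 43.1 and 47.5 for CD4, 57.6 and 56.4 for CD8a and 48.6 and 61.3 for CD172a. Both libraries together, Cd209a was found in 45.7% of cells at 1000 UMIs, 67.2% at 4000 and 72.5% unthinned (58.1% at 2000), Ccr2 in 22.8%, 51.5% and 67.6% (35.7%), and Clec12a in 16.1%, 49.8% and 70.4% (30.9%). The median position of the 252 genes or their alternatives ran from 0.203 to 0.289.

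No paired analysis was possible between the genotypes because each had 1 library. The label contrasts were paired within each of the 2 libraries and called where both agreed, and no test of them was run. The small number of C15 cells in Batf3-/- and the pooling of mice limit every contrast with C15 and between genotypes.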

Other observations

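Other gene groups were compared between monocyte-labelled and DC-labelled C2 cells, where 2.11% of all genes were higher and 2.15% lower. Of 16 measured immediate-early and stress genes, 5 S100 genes and 6 phagocyte oxidase subunits none passed in either direction, with median log2 ratios of 0.17, -0.02 and 0.08, counts near those shares in groups of these sizes. Of 15 interferon-stimulated genes only Ifi27l2a was higher. Among the transcription factors, Cebpb, Irf8 and Zeb2 were higher and Bhlhe40, Etv3, Id2 and Relb lower. Cebpb passed the level filter only through the monocyte-labelled cells, so that no count of this list is given. Irf8, which directs cDC1 and monocyte development, was at 151 and 146 CPM against 85.4 and 95.6 CPM in DC-labelled C2 cells and 586 and 322 CPM in C15. Zeb2, a repressor active in cDC2 cells and monocytes, was at 476 and 508 CPM against 287 and 290 CPM and 569 and 669 CPM.

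Axl, a receptor for apoptotic cells, was at 32.2 CPM in WT and 37.7 CPM in Batf3-/- in the monocyte-labelled C2 cells, against 9.08 and 10.8 CPM in DC-labelled C2 cells and 14.99 and 8.33 CPM in C15, below the level filter, and was named after its values were seen.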
